A study of Bos taurus and Felis catus with 14 samples.

Results

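The mir-532, mir-188, mir-500 and mir-502 cluster is a group of microRNA genes on the X chromosome of placental mammals. Its members in the deposited bovine and feline sets were taken by name: every predicted precursor of the families mir-188, mir-362, mir-500, mir-501, mir-502, mir-532 and mir-660, with any letter, copy number or further suffix, and with antisense loci left out. The rule gave 15 of 1305 precursors, 8 of 810 in the cow and 7 of 495 in the cat. These loci were compared between the species for order, spacing, copy number, arms and the position of the mature products in the hairpin.

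The predictions came from small RNA sequencing of tissue. The bovine set (Bos taurus) rests on 10 libraries of 10 tissues from 3 steers. Steer 1 gave iris, retina, optic nerve, bone marrow, submandibular lymph node, dental pulp, oral papillae and penis, whereas brain stem came from steer 2 and corium from steer 3. The feline set (Felis catus) rests on 4 libraries from 3 cats, 2 of skin and 2 of muscle, and 1 of the cats gave both tissues. The program miRWoods, which scores stacks of aligned reads and then the hairpins around them with random forests, was run on all libraries of a species together. There was therefore 1 call set per species and no replicate, so that differences between cow and cat are given as values without a test. A locus or its position can differ between the sets because the tissues, sequencing and genome assemblies differed as well as the species. These cannot be told apart. The sets hold positions, strands and names. Read numbers, which the study tabulates apart from these sets, were not used here, so neither the depth behind a locus nor its level in a tissue is given.

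A microRNA is cut from a hairpin. Drosha frees the precursor hairpin from the primary transcript, Dicer removes its loop, and of the resulting duplex the strand from the left arm (5p) or from the right arm (3p) is loaded into Argonaute. MicroRNAs that lie close together on the same strand are often made from a common transcript. The genes of this cluster lie in an intron of CLCN5 in well annotated mammals. CLCN5 encodes a chloride and proton exchanger of endosomes in the kidney tubule, and its loss causes Dent disease. The mature products are counted among the microRNAs studied in cancer and in bone: miR-188 was described to favour fat over bone formation in marrow stromal cells, miR-362 to target the deubiquitinase CYLD, miR-502 the histone methyltransferase SET8 and miR-660 the p53 regulator MDM2. mir-500, mir-501 and mir-502 are close relatives whose products resemble each other, and their hairpins were numbered apart by convention. Mature sequences and seeds were not analysed here, so relatedness below is by name and by position alone.

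All members in both sets lay on the plus strand of the X chromosome in 1 cluster, defined as at least 2 precursors with neighbours at most 10 kb apart. The bovine cluster reached from 92886518 to 92903870 and the feline cluster from 43276883 to 43288822. In the order of transcription the bovine loci were bta-mir-532, bta-mir-188, bta-mir-502a-2, bta-mir-502b, bta-mir-362, bta-mir-500, bta-mir-660 and bta-mir-502a-1. The feline cluster began with fca-mir-532 and fca-mir-188, followed by a mir-500 locus, fca-mir-362, a further mir-500 locus (fca-mir-500-Novel2), fca-mir-660 and fca-mir-502. The mir-500 locus before fca-mir-362, whose name has the same suffix without a number, is called the first feline mir-500 locus here. The 4 families with the same name in both species, mir-532, mir-188, mir-362 and mir-660, came in the same order. No other precursor on either strand was predicted between the outermost members in either set.

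**Figure D1:**
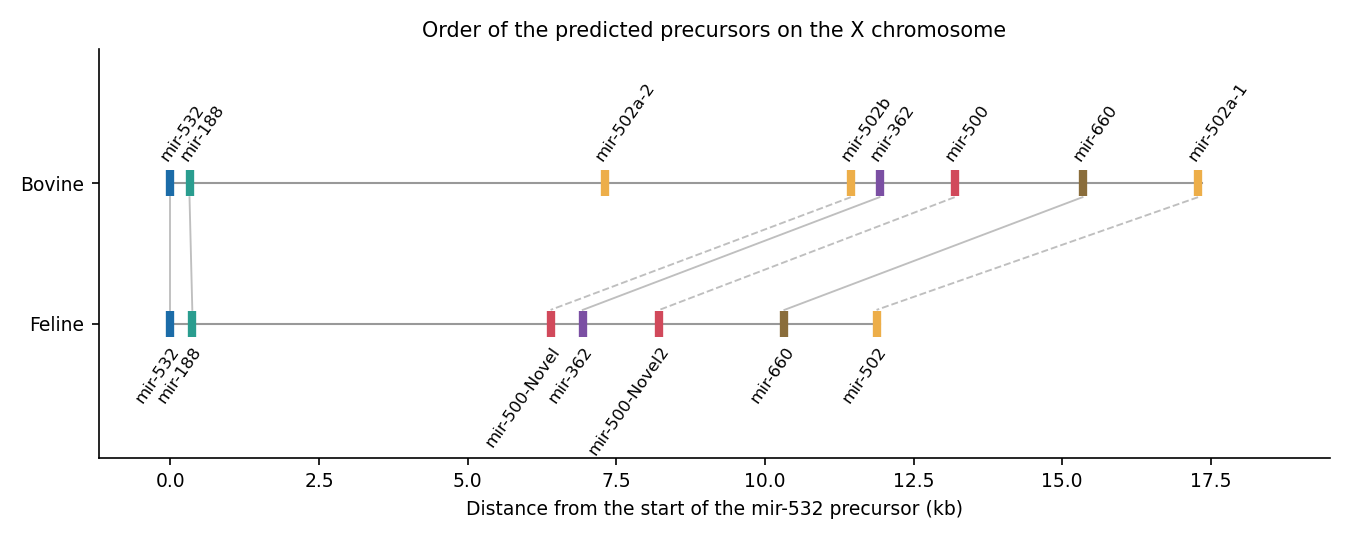
Map of the cluster in both species, with the distance from the start of the mir-532 precursor in kb on the x axis and a mark for each predicted precursor, coloured by family. Solid lines join same-named loci and dashed lines join loci paired by position. The 4 same-named pairs keep 1 order, and the order of the dashed pairs is fixed by the pairing rule. In this pairing bta-mir-502a-2 has no feline partner.

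The 3 remaining feline loci were paired with bovine ones by their place between the same-named loci. Between mir-188 and mir-362 the cow had 2 candidates for 1 feline locus, and there the candidate nearer to mir-362 was taken, since mir-362 is the nearer anchor in the cat. This joined bta-mir-502b with the first feline mir-500 locus, bta-mir-500 with fca-mir-500-Novel2 and bta-mir-502a-1 with fca-mir-502, and left bta-mir-502a-2 unpaired. Of the 7 pairs, 4 shared a name. As same-named loci were joined first, names could differ only among the remaining loci, all of the mir-500 and mir-502 group. In this group the locus just before mir-362 is named mir-502b in the cow and mir-500 in the cat. The suffix of the feline mir-500 names marks loci that the authors named by the seed and the similarity of their product to a known microRNA, while plain feline names follow an earlier feline annotation.

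Copy number differed only in this mir-500 and mir-502 group. mir-532, mir-188, mir-362 and mir-660 had 1 locus each in both species. mir-500 had 1 bovine and 2 feline loci, and mir-502 had 3 bovine loci and 1 feline locus. These counts are by name, and the locus just before mir-362 counts as mir-502 in the cow and as mir-500 in the cat. mir-500 and mir-502 jointly held 4 loci in the cow and 3 in the cat. mir-501 had 0 loci in both sets, and 6 of the 7 families were represented in each.

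The bovine members were also searched for in the RefSeq genes of the assembly ARS-UCD2.0, which is not known to be that of the predictions. All 8 matched by name, in the same order as in the predictions, and all lay within CLCN5. The table listed 0 other genes between the first and the last of them, and 0 genes with the name mir-501. The nearest protein-coding genes on either side of CLCN5 were USP27X, a ubiquitin-specific peptidase gene, and AKAP4, a gene for an anchoring protein of the sperm tail. The position of the members relative to exons and introns, and the host gene of the feline members, were not analysed here.

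The left end of the cluster held mir-532 and mir-188 close together. bta-mir-532 spanned 92886518 to 92886580 and bta-mir-188 spanned 92886841 to 92886901, with a gap of 260 nt between them. fca-mir-532 spanned 43276883 to 43276945 and fca-mir-188 spanned 43277253 to 43277313, with a gap of 307 nt. This was the shortest gap of the cluster in each species, and the bovine gap was 47 nt shorter (cow to cat ratio 0.847).

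The longest gap followed mir-188 in both species, and it was here that the clusters differed in size. In the cow, 6934 nt separated bta-mir-188 from bta-mir-502a-2 (92893836 to 92893896), and a further 4066 nt separated this locus from bta-mir-502b (92897963 to 92898025). In the cat, 5965 nt separated fca-mir-188 from the first feline mir-500 locus (43283279 to 43283341). Between paired loci the distance was thus 11061 nt in the cow, which includes the unpaired precursor, and 5965 nt in the cat, a ratio of 1.85 and a difference of 5096 nt.

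To the right of this interval the gaps were of like size in most pairs. The gap from bta-mir-502b to bta-mir-362 (92898446 to 92898506) was 420 nt, against 478 nt from the first feline mir-500 locus to fca-mir-362 (43283820 to 43283878), a ratio of 0.879. The choice of bta-mir-502b as the partner partly fixed this value, since the other candidate, bta-mir-502a-2, lay 4549 nt from bta-mir-362. From mir-362 to bta-mir-500 (92899710 to 92899772) it was 1203 nt, against 1229 nt to fca-mir-500-Novel2 (43285108 to 43285170), a ratio of 0.979. These loci stood 58 and 26 nt closer together in the cow. The gap to mir-660 was 2087 nt in the cow (bta-mir-660, 92901860 to 92901926) and 2040 nt in the cat (fca-mir-660, 43287211 to 43287267), a ratio of 1.02. The last gap was 1876 nt to bta-mir-502a-1 (92903803 to 92903870) and 1493 nt to fca-mir-502 (43288761 to 43288822), a ratio of 1.26 and a difference of 383 nt. Apart from this last one, these gaps differed by at most 58 nt.

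As a whole, the cluster measured 17353 nt in the cow and 11940 nt in the cat, a ratio of 1.45. Of the 5413 nt difference, 5395 nt came from the distances between paired loci and 18 nt from the lengths of the paired precursors. The 5395 nt include the 61 nt hairpin of the unpaired bta-mir-502a-2. The interval after mir-188 accounted for nearly all of it, since the other gaps added up to a difference of 299 nt. Hairpins made up 2.92% of the bovine and 3.58% of the feline cluster.

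For comparison, gaps were computed for the other same-named precursors that lie next to each other within 10 kb in both sets. The 24 such gaps had cow to cat ratios from 0.74 to 1.5 with a median of 0.985, and 21 of them lay between 0.9 and 1.1. Of the 6 ratios of paired members, 2 lay between 0.9 and 1.1. Only the gap from mir-532 to mir-188 joins same-named loci at both ends, as the 24 gaps do. The rest of the 6 involve a locus paired by position and are not fully like the 24. The ratio of 1.85 after mir-188 lay above the whole range, and the other 5 lay inside it. The 1.85 is however not the same quantity, as a predicted bovine precursor lies within the interval. Its 2 bovine parts of 6934 and 4066 nt, set singly beside the feline 5965 nt, were 1 longer and 1 shorter.

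**Figure D2:**
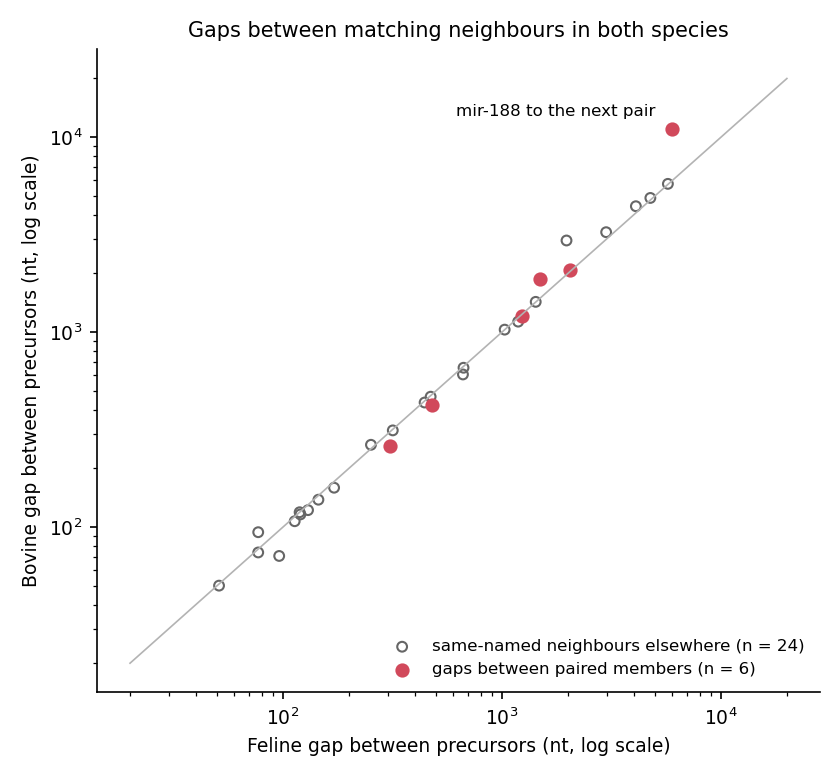
Gaps between neighbouring precursors in nt, feline on the x axis and bovine on the y axis, both on a log scale, with the line of equality. Filled points are the 6 gaps between paired members and open points the 24 gaps between same-named neighbours elsewhere; the gap after mir-188 (11061 against 5965 nt) lies farthest above the line.

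Among 77 clusters in the cow and 57 in the cat, only the imprinted mir-379 cluster (38 and 22 loci) held more loci than the mir-532 cluster. Whether others held as many was not checked. The mir-532 cluster had long gaps beside those of the other clusters pooled. In the cow, 5 of its 7 gaps were over 1000 nt, compared with 31.8% of the 151 gaps in the other bovine clusters. In the cat it was 4 of 6 gaps, compared with 34.3% of the 102 gaps in the other feline clusters. The median gap was 1876 nt in the cow and 1361 nt in the cat, against medians of 326 and 315 nt in the other clusters of each set. With 7 and 6 gaps of 1 cluster that share their place, these counts describe the cluster and were not tested.

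Among like clusters, the mir-424, mir-503, mir-542 and mir-450 group, which is also X-linked, had 6 loci in each species over 6599 nt in the cow and 6277 nt in the cat, with median gaps of 264 and 252 nt. The mir-17 to mir-92 cluster, a polycistron known for its role in cell proliferation, had 6 loci over 758 and 764 nt, with median gaps of 60 and 59 nt. Neither of these differed in number of loci between the sets, and their lengths were close to each other. The mir-379 cluster had median gaps of 665 nt in the cow and 1689 nt in the cat, where fewer of its loci were predicted. It covered 42872 and 41490 nt.

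**Figure D3:**
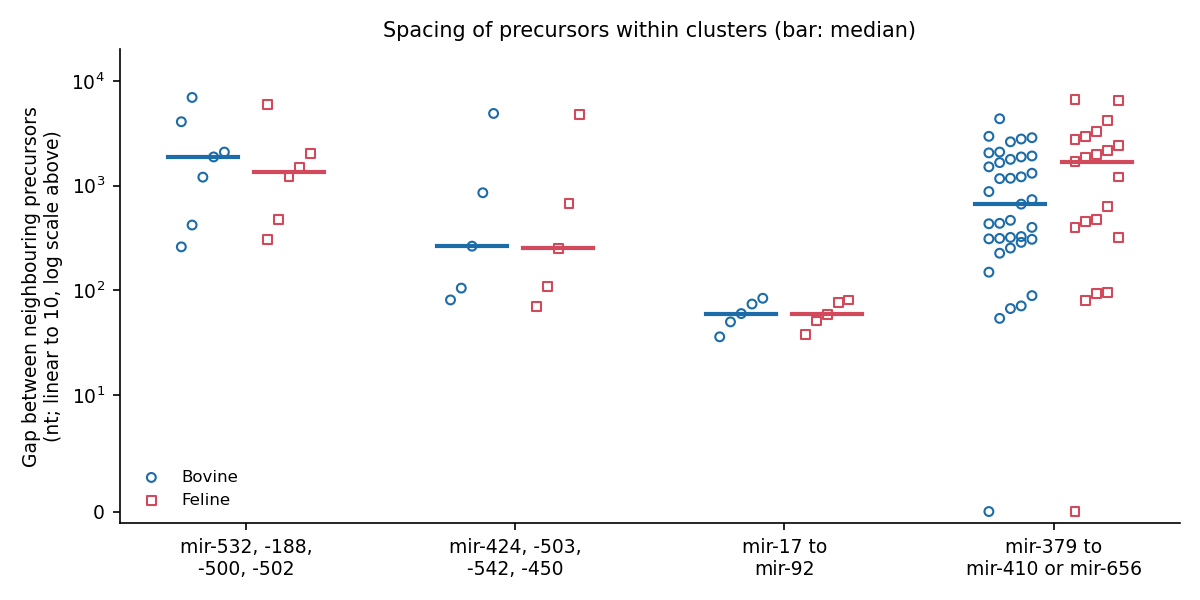
Gap between neighbouring precursors in 4 clusters (nt, linear to 10 and log scale above), with circles for bovine and squares for feline gaps and a bar at each median. In the cluster of mir-532, mir-188, mir-500 and mir-502 the medians are 1876 nt in the cow and 1361 nt in the cat. In the mir-17 to mir-92 cluster they are 60 and 59 nt, and in the mir-379 cluster 665 and 1689 nt.

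Outside the cluster the neighbouring loci differed between the species. The nearest predicted precursor before bta-mir-532 was bta-Novel222, at 753182 nt, and the nearest after bta-mir-502a-1 was bta-mir-98, at 3478773 nt. In the cat they were fca-mir-222, 3212923 nt before fca-mir-532, and fca-Novel41, 2488354 nt after fca-mir-502. mir-98, a let-7 relative, followed the members in both species, in the cat at 2789742 nt, and lay on the minus strand in both. mir-222, a regulator of the cell cycle inhibitor p27, lay on different sides: in the cat it preceded the members on the minus strand, and in the cow it followed them on the plus strand at 10634276 nt. mir-424 was also on opposite sides, 74701002 nt before the members in the cow and 67030925 nt after them in the cat. The members held 8 of 62 bovine and 7 of 43 feline precursors on the X chromosome. mir-98, mir-222 and mir-424 were chosen for this comparison after their positions were seen.

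Products from both arms were called for most members. In the cow they were called at 6 of 8 loci, 75.0% (95% exact Clopper-Pearson interval 34.9 to 96.8), compared with 72.5% of all 810 bovine precursors. In the cat they were called at 7 of 7 loci (59 to 100%), compared with 65.7% of all 495 feline precursors. The bovine share was near that of the whole set, and the feline share was above that of its set. Intervals cover counting error only and treat the loci as independent draws. The members are neighbouring loci taken by name, so the intervals cannot decide whether a share differs from that of its set. Such a difference was not tested.

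The bovine exceptions were bta-mir-502a-2 and bta-mir-502a-1, for which a 3p product alone was called. The copy numbers 1 and 2 in these names are given by convention to hairpins with the same mature product. bta-mir-502a-2 had a 3p product of 20 nt at bases 41 to 60 of a 61 nt hairpin. bta-mir-502a-1 had a 3p product of 23 nt at bases 45 to 67 of a 68 nt hairpin. So the products called for this pair of copies differed by 3 nt in length. At fca-mir-502, the feline partner of bta-mir-502a-1, a 5p product of 24 nt (bases 1 to 24) and a 3p product of 23 nt (bases 39 to 61) were called in a hairpin of 62 nt. The 3p products of this pair had the same length, and the 5p product was called in the cat alone. A 3p product was called at every one of the 15 loci. Such products were common in the whole sets, with 736 over 810 bovine precursors and 433 over 495 feline ones.

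mir-532 and mir-188 were called identically in both species. The mir-532 hairpin was 63 nt long, with a 5p product at bases 2 to 23 and a 3p product at bases 39 to 60, each of 22 nt. The mir-188 hairpin was 61 nt long, with a 22 nt 5p product at bases 1 to 22 and a 21 nt 3p product at bases 40 to 60. In all of these values cow and cat were equal to the nucleotide.

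bta-mir-500 and fca-mir-500-Novel2 were likewise equal, with 23 nt products at bases 1 to 23 and 40 to 62 of a 63 nt hairpin. The first feline mir-500 locus had exactly these positions as well. bta-mir-502b, its partner by place, differed from it by a single nucleotide: its 5p product ended at base 22, while the 3p product at bases 40 to 62 and the hairpin of 63 nt were the same. Of the loci with both arms, 1 of 587 bovine ones, bta-mir-500 itself, and 3 of 325 feline ones had these positions, the third feline locus being fca-Novel116. The positions were taken from bta-mir-500, and how often other exact positions recur is not given here, so these counts do not show how unusual the match is. The resemblance is one of called positions, and the sequences of these hairpins were not compared.

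mir-362 and mir-660 differed between the species. For mir-362 the 3p product of 21 nt lay at bases 38 to 58 in both, but the 5p product was 24 nt in the cow and 26 nt in the cat, each from base 1, and the hairpin was 61 and 59 nt long. fca-mir-362-5p was the longest product of the cluster. Products of 26 nt or more made up 0.358% of the 1397 bovine and 0.732% of the 820 feline products, and the feline member was 1 of 6 in its set. For mir-660 the hairpin was 67 nt in the cow and 57 nt in the cat. The 22 nt 5p product lay at bases 6 to 27 in the cow and 1 to 22 in the cat, and the 3p product was 22 nt (bases 43 to 64) and 20 nt (bases 37 to 56). mir-660 was the only pair with both arms in both species whose product starts differed.

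**Figure D4:**
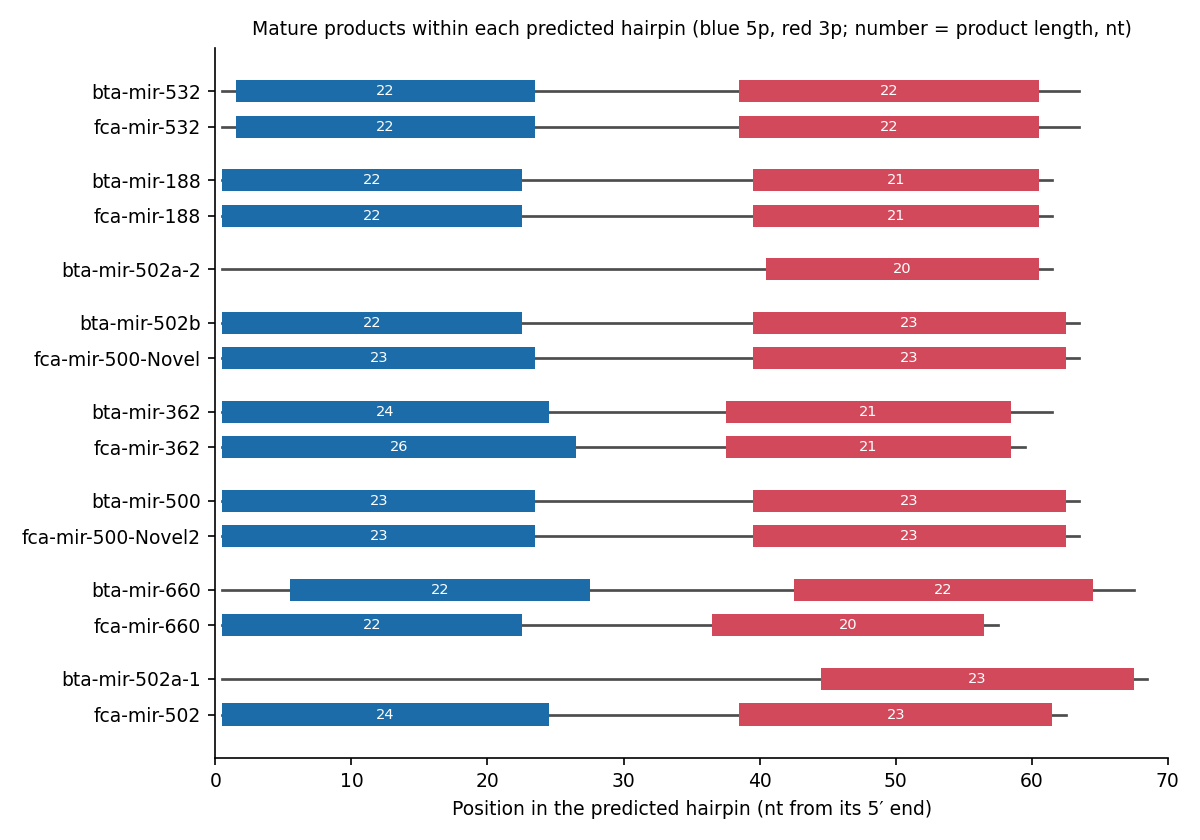
Called products within each hairpin, with the position in nt from the 5′ end of the hairpin on the x axis and the loci in cluster order, each bovine locus above its feline partner. Blue bars are 5p and red bars 3p products with their length in nt; mir-532, mir-188 and the bta-mir-500 pair are identical, and the bovine mir-502a copies lack a 5p bar.

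Counted over the pairs, precursor length was equal in 4 of 7, against 36.5% of the 159 precursors that bear the same name in both sets. Of the 4 same-named pairs, it was equal in 2. Among the 6 pairs with both arms called in both species, both product lengths were equal in 3, against 60.6% of the 132 such same-named loci. Both product starts were equal in 5 of 6, against 40.9%. These 6 pairs include those of bta-mir-502b and bta-mir-500, which were joined by place under different names, so they are not fully like the same-named loci. With 6 and 7 pairs, none of these counts was tested against its share. The 132 and 159 loci include the same-named members.

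The start-to-start distance from the 5p to the 3p product does not depend on where the hairpin span was set. It was equal in 5 of the 6 pairs, not all of them same-named, against 78.0% of the 132 same-named loci. It was 37 nt at mir-532 and mir-362 and 39 nt at mir-188, bta-mir-500 and bta-mir-502b and at their feline partners. At mir-660 it was 37 nt in the cow and 36 nt in the cat, so that its products differed by 1 nt in their distance although the 5p start lay at base 6 and base 1 of the called hairpins. At fca-mir-502 it was 38 nt. The members covered 37 to 39 nt in the cow and 36 to 39 nt in the cat, around the median of 38 nt over all loci with both arms in either set (quartiles 36 and 41 nt).

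The hairpins of the members were near the usual length in each set. They measured 61 to 68 nt (median 63) in the cow and 57 to 63 nt (median 62) in the cat, against medians of 66 and 65 nt over each set. The stretch between the products was 13 to 17 nt in the cow and 11 to 17 nt in the cat. Its medians of 15.5 and 15 nt were close to the 16 nt of all loci with both arms in each set. The feline minimum, at fca-mir-362, was that of a locus with a long 5p product, and 8.31% of feline loci had 11 nt or less there. In the cow 18.2% of loci had 13 nt or less. A single base followed the 3p product in 5 of 8 bovine members, against 41.6% of all bovine 3p products, and in 6 of 7 feline members, against 43.2% of feline ones.

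The order in which the products of a locus were listed divided the members by family. The 5p product came first at mir-532, mir-188, mir-362 and mir-660 in both species, and the 3p product came first at every mir-500 and mir-502 locus with both arms. The same arm was first in all 6 pairs with both arms in both species, not all of them same-named, against 90.9% of the 132 same-named loci. Over each whole set, 5p came first at 50.8% of bovine and 56.0% of feline loci with both arms. The sources used here do not say what the order stands for, so it is reported as a property of the lists and was not read as which arm is more abundant.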

How the data were processed

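Small RNA libraries of 10 bovine and 4 feline tissue samples were deposited as 1 set of predictions per species. Per the submitters' processing notes the authors used cutadapt 1.15, Bowtie 1.2.11 and SAMtools, and per the paper's methods they ran miRWoods over all libraries of a species. The deposited values are the 1-based genomic start and end of each precursor and product, beside its strand and name. The sources used here do not name the genome build. Feline sequences are named by versioned RefSeq accessions, from which the X chromosome was identified. The authors divided reads that match several genome positions among them, which can affect loci with similar sequence. The read numbers that the study tabulates separately were not used here.

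Spans, gaps (bases between neighbouring spans) and product offsets were computed with Python 3.11.15, numpy 2.4.6 and scipy 1.17.1, and drawn with matplotlib 3.10.9. No test was run, and the shares of members with both arms carry 95% exact binomial intervals. Loci were paired by order, with same-named loci as anchors and the gap to the nearest anchor deciding among candidates. The grouping of loci into clusters was tested on simulated lists, and 50 of 50 were recovered. The pairing of loci between the species was not tested in this way. The loci named were all members, 3 like clusters, the nearest predicted locus on each side and the host gene. Members and lists were chosen with earlier results of these data known. RefSeq gene positions (ARS-UCD2.0) served only for names and neighbours. The planned count of shared seeds (bases 2 to 8) was not run, because mature sequences were not at hand.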

Additional observations from a re-analysis of the deposited data

How the results depend on the processing

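Of 26 alternatives, 20 kept the value or, for a count, kept it within 1.5 times, and 6 did not. With no replicates to give a spread, a length had to stay equal and a ratio equal to 3 digits. With neighbours at most 1 kb apart the largest group held 2 bovine and 2 feline members, and with at most 5 kb 6 and 5. Measured from first to last product, the cluster was 17351 nt in the cow and 11938 nt in the cat. The median cow to cat gap ratio of 1.001 became 1.006 with loci paired by family name only, and 1.093 with bta-mir-502a-2 in place of bta-mir-502b. That last pairing, chosen after seeing the data, left 3 pairs of equal precursor length and 4 of equal product starts. With products of 20 to 24 nt only, both arms were counted at 6 bovine members, as before, and at 6 feline members in place of 7. No paired analysis was possible because each species has 1 call set, so no library could be left out either. The alternatives for shared seeds were not run.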
